A study of Mus musculus with 9 samples.

Results

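The syndecans and glypicans are the proteoglycans that carry heparan sulfate on the cell surface, and here 9 of their genes (Sdc1, Sdc2, Sdc3, Sdc4, Gpc1, Gpc2, Gpc3, Gpc4 and Gpc6) were followed in muscle satellite cells of wild type and Bmi1-deficient mice. The members were taken by name: every array probe that is not a control and whose gene name is one of the 9. This gave 10 probes among the 55681 of the array, with 2 probes for Gpc3 and 1 for each of the other genes. After a filter on dim probes, 9 member probes remained among 42983, 1 for each gene, and these 9 genes stand among 28365 gene names with a kept probe.

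Satellite cells, from which muscle fibres regenerate, came from skeletal muscle of FVB mice labelled male and 2 months old. The flow cytometry gate took cells with integrin alpha-7 and CD34 on their surface, and left out those with Sca1, CD11b, CD45 or CD31. One group is wild type (WT) and the other Bmi1-deficient (KO). The labels say neither how the allele was made nor whether animals were pooled. Bmi1 belongs to the Polycomb complex PRC1, which marks histone H2A and is known for holding down the Cdkn2a locus. RNA of the sorted cells was amplified as whole transcriptome cDNA, labelled with Cy3 and hybridised to 1-colour Agilent arrays, 6 for KO and 3 for WT. Those for KO fall into 3 pairs that share the first number of their description, and arrays of a pair correlated at 0.9944 to 0.9956 against 0.9622 to 0.9786 for all other pairs of arrays. The mean of each KO pair was taken as 1 sample, so 3 WT samples are compared with 3 KO samples: KO sample 1 holds replicates 1 and 4, KO sample 2 replicates 2 and 5, and KO sample 3 replicates 3 and 6. The labels name biological replicates without naming animals, so the p-values measure only how far these samples spread, which may be technical.

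Of the spots on an array, 71.9% to 75.8% were well above background, and none was saturated. The genotype field of KO replicate 1 reads wild type, against its title, source and description. No member changed its side of the threshold when that array was left out. Both Bmi1 probes, on all 9 arrays, read slightly higher in KO, by 0.21 and 0.10 on the log2 scale (limma adjusted p = 0.699 and 0.864). Whether these probes lie in the part that was removed is not known here, so they do not check the labels. Cdkn2a was higher in KO by 3.28 (limma adjusted p = 0.0207) at a probe well above background on all 9 arrays. Its other probe was so on 1 of 9 arrays and did not pass the filter. Each pair of KO arrays was spread over both slides, with WT samples 1 and 3 on slide 1 and WT sample 2 on slide 2.

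Syndecans span the membrane and end in a short cytoplasmic tail that binds PDZ proteins and cytoskeletal adaptors. Glypicans are held in the outer leaflet by a lipid (GPI) anchor and have no cytoplasmic part. The heparan sulfate chains of both families hold growth factors such as FGF2 and HGF, Wnt and Hedgehog ligands, and matrix proteins, and present them to their receptors. In skeletal muscle, Sdc3 and Sdc4 are known as surface markers of satellite cells, and both have been tied to satellite cell activation and muscle repair.

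The probe sequences show which stretch was read for each gene. Given here, 5′ to 3′ as in the scanner files, are the first 30 of the 60 bases of 5 probes, with mm9 coordinates of the whole probe: those of the 4 genes whose KO samples all lay above their WT samples, and the undetected probe of Gpc3.
Sdc3 (chr4:130382015-130382074, plus strand): gagttcatggccaaaacttaaataagagaa
Sdc4 (chr2:164251211-164251270, minus strand): ttgttccaaatttccagaatagaatatagg
Gpc3, detected probe (chrX:49625740-49625799, minus strand): aaatggtatctttatgaggatggtaaattt
Gpc3, undetected probe (chrX:49740892-49740951, minus strand): gctctcagttattgggagtgaactttgcat
Gpc6 (chr14:118375311-118375370, plus strand): gcattctcttaacataacaactcacaacaa
The G and C content of the 10 member probes was at most 53.3%. No run of more than 7 bases was shared by any 2 of them, and none shared a run of 20 bases with any other probe of the array. The 2 Gpc3 probes lie 115092 bases apart on the X chromosome. Whether a probe falls in a coding exon or a UTR was not analysed here, since no annotation of mm9 was used.

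All 9 kept member probes were well above background on all 9 arrays, so each gene gave a measured level in both genotypes. KO was higher than WT for 8 of the 9 genes and lower for Gpc2, with a median difference of 0.36 on the log2 scale, against -0.01 over all kept probes, of which 48.0% were higher in KO. None of the 9 differences passed the limma test at an adjusted p of 0.05, where 0.0489% of all kept probes did (21 of 42983, 20 of them higher in KO). At an unadjusted limma p under 0.05, 4 of the 9 were higher (Gpc3, Sdc4, Gpc6 and Sdc3) and 0 lower, where 6.49% of all kept probes were higher. In the same 4 genes every KO sample lay above every WT sample, a pattern seen in 8.58% of all kept probes. The 4 syndecans were all higher, with a median of 0.46, and 4 of the 5 glypicans were higher, with a median of 0.09. In these sorted cells, more RNA per cell and more cells of a kind that carries the transcript cannot be told apart.

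**Figure D1:**
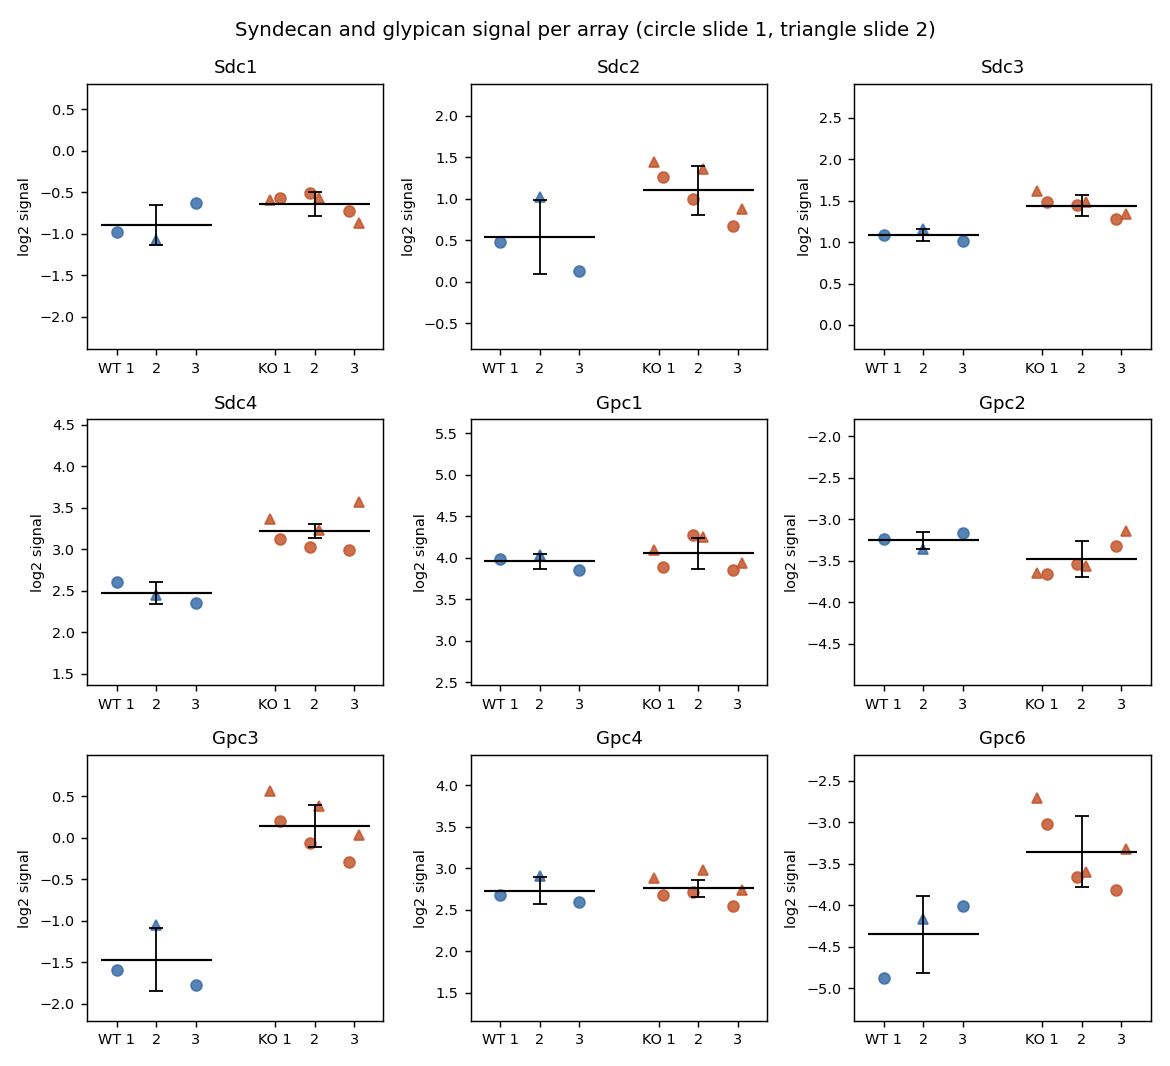
Log2 signal relative to the 75th percentile of each array (vertical axis, the same span in every panel) of the 9 kept member probes by sample (horizontal axis), with WT in blue, KO in orange-red, circles for arrays on slide 1 and triangles for arrays on slide 2; the bars are the mean and SD over 3 samples of a group. The KO points lie wholly above the WT points for Gpc3, Sdc4, Sdc3 and Gpc6, and the groups overlap in the other panels once the KO arrays of a pair are averaged.

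Sdc4, the syndecan that joins integrins at focal adhesions and binds protein kinase C alpha, had the largest difference of the 4 syndecans. Its log2 signal, relative to the 75th percentile of each array as throughout, was 2.61, 2.45 and 2.36 in WT samples 1 to 3 and 3.25, 3.13 and 3.28 in KO samples 1 to 3. All 3 KO samples lay above all 3 WT samples, with a gap of 0.52 between the groups. The means were 2.47 ± 0.13 (SD, n = 3) in WT and 3.22 ± 0.08 (SD, n = 3) in KO. The difference was 0.75 ± 0.13 (SE; 95% interval 0.42 to 1.07), or 1.68-fold, with a limma adjusted p = 0.141. A difference of at least this size toward KO was seen in 7.21% of all kept probes. Within slide 1 it was 0.57 and within slide 2 it was 0.94, where the only WT sample leaves no test. The KO array on slide 2 read higher than its partner on slide 1 in all 3 pairs, by 0.24, 0.20 and 0.58.

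Sdc3, which carries both heparan and chondroitin sulfate and has been tied to Notch signalling in satellite cells, differed less and with little spread. Its log2 signal was 1.08, 1.15 and 1.01 in WT samples 1 to 3 and 1.55, 1.46 and 1.30 in KO samples 1 to 3. The groups did not overlap, and the gap between them was 0.15. The means were 1.08 ± 0.07 (SD, n = 3) and 1.44 ± 0.12 (SD, n = 3). The difference was 0.36 ± 0.13 (SE; 95% interval 0.04 to 0.67), or 1.28-fold, with a limma adjusted p = 0.405. It was 0.36 within slide 1 and 0.32 within slide 2.

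Sdc2, the syndecan best known from fibroblasts and other mesenchymal cells, varied most among the WT samples of the 4 syndecans. Its log2 signal was 0.48, 1.02 and 0.13 in WT samples 1 to 3 and 1.35, 1.18 and 0.78 in KO samples 1 to 3. WT sample 2 read above KO sample 3, so the groups overlapped. The difference was 0.56 ± 0.28 (SE; 95% interval -0.11 to 1.23), with a limma adjusted p = 0.554. It was 0.67 within slide 1 but 0.21 within slide 2, where WT sample 2 is the only WT array.

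Sdc1, known as CD138 on plasma cells and abundant in epithelia, was measured at -0.98, -1.07 and -0.62 in WT samples 1 to 3 and at -0.58, -0.54 and -0.80 in KO samples 1 to 3. KO sample 3 lay below WT sample 3, and the groups overlapped. The difference was 0.25 ± 0.17 (SE; 95% interval -0.16 to 0.67; limma adjusted p = 0.689).

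Among the glypicans the largest difference was that of Gpc3, whose loss of function in people gives an overgrowth syndrome and which is known to bind Hedgehog ligands and to hold that pathway back. The log2 signal of its detected probe was -1.59, -1.04 and -1.77 in WT samples 1 to 3 and 0.39, 0.16 and -0.12 in KO samples 1 to 3. The lowest KO sample lay 0.92 above the highest WT sample. The means were -1.47 ± 0.38 (SD, n = 3) in WT and 0.14 ± 0.25 (SD, n = 3) in KO. The difference was 1.61 ± 0.24 (SE; 95% interval 1.02 to 2.20), or 3.05-fold (2.03 to 4.60), with a limma adjusted p = 0.108. Of all kept probes, 600 had a larger difference toward KO. Within slide 1 the difference was 1.64 and within slide 2 it was 1.37. The slide 2 array of each KO pair read higher than its partner, by 0.36, 0.44 and 0.32, and WT sample 2, on slide 2, was the highest WT sample.

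The call on Gpc3 depended on the processing. With a normexp background correction its limma adjusted p was 0.0302 and its difference 1.46, and in the authors' table of processed values these were 0.0440 and 1.45. With the 9 arrays taken as separate, which counts repeat arrays as replicates, the limma adjusted p was 0.00598 for Gpc3 and 0.0254 for Sdc4. With normexp and in the authors' table, Sdc4 was at limma adjusted p of 0.0542 and 0.0527. In every other setting tried, neither gene passed the threshold. The other Gpc3 probe, placed 115092 bases away, was well above background on 0 of 9 arrays, and its log2 signal of -7.92, -8.31 and -8.14 in WT and -8.22, -8.26 and -8.16 in KO gives no fold.

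Gpc6, a glypican that promotes Hedgehog signalling in growing bone, gave a difference whose size moved with the background correction. Its log2 signal was -4.88, -4.16 and -4.00 in WT samples 1 to 3 and -2.86, -3.63 and -3.57 in KO samples 1 to 3. The groups did not overlap, with a gap of 0.38, and KO sample 1 stood above the other KO samples. The difference was 0.997 ± 0.32 (SE; 95% interval 0.22 to 1.77), or 2.00-fold, with a limma adjusted p = 0.346. With the normexp correction, whose offset draws dim values together, the difference was 0.55.

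Gpc1, a glypican of brain and muscle that binds FGF2, was measured at 3.99, 4.03 and 3.86 in WT samples 1 to 3 and at 3.99, 4.26 and 3.90 in KO samples 1 to 3. The groups overlapped, and the difference was 0.09 ± 0.15 (SE; 95% interval -0.27 to 0.46; limma adjusted p = 0.890). Gpc4, a glypican known to act in BMP and Wnt signalling, was measured at 2.68, 2.91 and 2.59 in WT samples and at 2.78, 2.85 and 2.64 in KO samples. The difference was 0.03 ± 0.14 (SE; 95% interval -0.32 to 0.38; limma adjusted p = 0.970). For both genes the sign turned under some settings, to -0.012 for Gpc1 without KO sample 2 and to -0.040 for Gpc4 within slide 2, so neither has a direction here.

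Gpc2, known as cerebroglycan from the developing nervous system, was the only member lower in KO. Its log2 signal was -3.24, -3.36 and -3.17 in WT samples 1 to 3 and -3.65, -3.55 and -3.23 in KO samples 1 to 3. KO sample 3 lay above both WT sample 1 and WT sample 2, and the groups overlapped. The difference was -0.22 ± 0.16 (SE; 95% interval -0.61 to 0.17; limma adjusted p = 0.707). It was -0.10 with the normexp correction, and -0.30 within slide 1 and -0.09 within slide 2. Gpc5, the glypican left out of the members, has 1 probe detected on all 9 arrays, with a difference of 0.49 (limma adjusted p = 0.712), and another on 0 of 9.

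**Figure D2:**
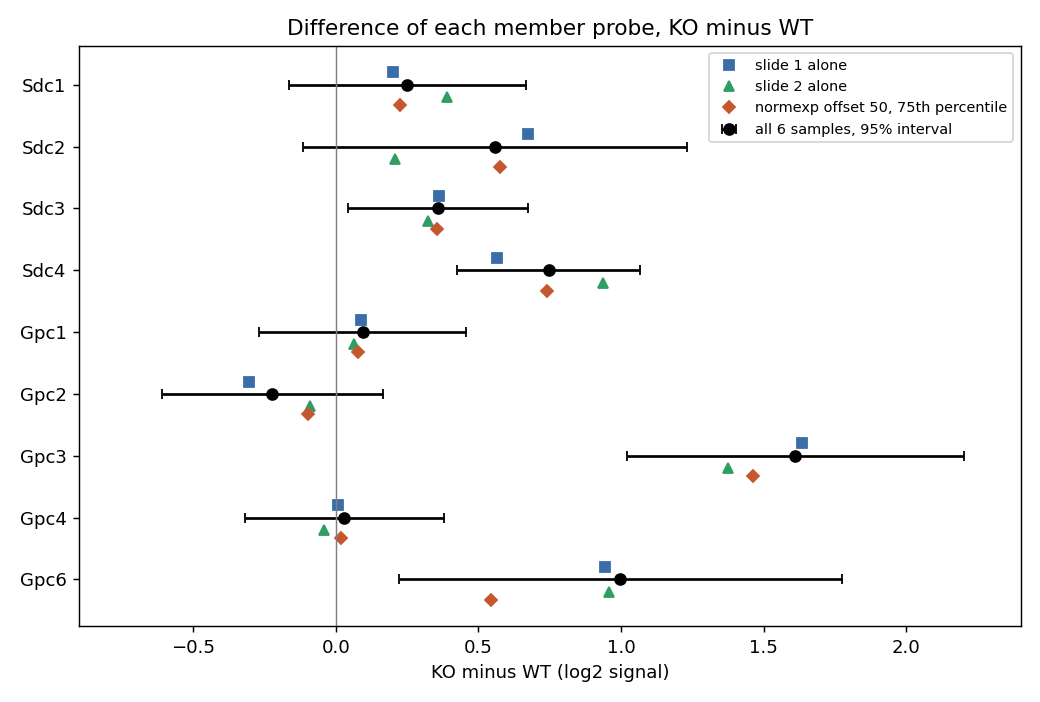
Difference of each kept member probe, KO minus WT, on the log2 scale (horizontal axis) by gene (vertical axis), with the black point and bar giving the difference over 3 WT and 3 KO samples and its 95% interval, and the other points giving the value within slide 1, within slide 2 and with a normexp background correction. The intervals of Sdc3, Sdc4, Gpc3 and Gpc6 lie above 0 before any adjustment for the number of probes, and the Gpc6 point stands at 0.55 in place of 0.997 with normexp.

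Gpc3 and Gpc4 are neighbours on the X chromosome, on the same strand, with their detected probes 219120 bases apart in mm9. Their differences were 1.61 and 0.03, with 95% intervals that do not meet, though the difference between these differences was not tested. PRC1 is known to gather at promoters rich in CG dinucleotides, so the 250 bases before the start of Gpc3, of its neighbour Gpc4 and of Sdc4 are shown for comparison, from RefSeq on GRCm38.p6, with every CG in capitals.
Gpc3 (chrX:52613975-52614224, minus strand): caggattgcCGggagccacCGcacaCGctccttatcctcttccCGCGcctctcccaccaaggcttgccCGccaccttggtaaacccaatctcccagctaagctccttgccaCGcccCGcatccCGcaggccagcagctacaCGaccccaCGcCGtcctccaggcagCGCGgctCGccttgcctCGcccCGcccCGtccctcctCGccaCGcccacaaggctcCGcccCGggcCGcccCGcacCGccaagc
Gpc4 (chrX:52164924-52165173, minus strand): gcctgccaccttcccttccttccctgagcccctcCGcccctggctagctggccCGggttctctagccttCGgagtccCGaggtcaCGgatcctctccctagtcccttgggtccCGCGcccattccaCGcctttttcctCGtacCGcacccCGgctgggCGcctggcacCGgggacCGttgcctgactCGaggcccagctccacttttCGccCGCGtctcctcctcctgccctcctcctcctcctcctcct
Sdc4 (chr2:164443189-164443438, minus strand): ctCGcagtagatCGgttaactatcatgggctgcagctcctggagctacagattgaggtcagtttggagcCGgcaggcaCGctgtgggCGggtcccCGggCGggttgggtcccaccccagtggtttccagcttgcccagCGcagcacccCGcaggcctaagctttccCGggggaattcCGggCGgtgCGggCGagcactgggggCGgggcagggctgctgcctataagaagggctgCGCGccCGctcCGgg
The motif searched was CG, which reads the same on both strands. It occurs 25 times in the Gpc3 window, 18 times in that of Gpc4 and 19 times in that of Sdc4. Among 32851 such windows in the table, 92.1% hold at least 1 CG and the median is 6. At least as many CG as in Gpc3, Gpc4 and Sdc4 are held by 10.67%, 21.7% and 19.7% of the windows. Of the 9 members, 6 had a window. Sdc3 held 32 CG (4.58% of windows hold as many), Gpc2 held 19 and Sdc1 held 10 (37.8%). PRC1 binding was not measured here, and whether the CG count bears on the differences was not tested.

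By their profile over the 6 samples, each centred on its mean, the genes nearest to Sdc4, among 15029 that were well above background on all 9 arrays, were Galnt10, which starts mucin-type O-glycans, Ldhb, a lactate dehydrogenase subunit, and Nid1, the basement membrane protein nidogen. Their root mean square distances were 0.048, 0.061 and 0.064, where the median gene lay at 0.44, and their differences between KO and WT were 0.71, 0.80 and 0.83. Nearest to Sdc3 were Arfgap3, a regulator of Golgi transport, Gas2l1, a linker of actin and microtubules, and Utrn, the dystrophin relative utrophin, at distances of 0.027, 0.040 and 0.048 where the median gene lay at 0.29. Some genes come this near by the search among so many, and nothing is read from it about shared control.

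A sort on surface markers can pass other cells, and markers of several non-muscle cell types stood higher in KO beside the members. The satellite cell list had no common direction, with 6 of its 13 genes higher in KO, 7 lower and a median of -0.01. Their summed linear signal, in units of each array's 75th percentile, was lower in every KO sample, at 155 to 159 against 166 to 181 in WT. Most of that sum came from Cxcr4 (22.9%), Fgfr4 (22.8%), Ncam1 (11.4%) and Chrdl2 (9.75%). Pax7 gave 4.23% of it and Itga7 2.93%, so the sum mainly describes those 4 probes. Every KO sample lay below every WT sample for the same 4 genes (Ncam1, Chrdl2, Fgfr4 and Cxcr4) and above for Msc and Cdh15. Of all kept probes, 8.58% had every KO sample above every WT sample. The share with every KO sample below was not counted, so nothing is read from these counts. The adhesion molecule Ncam1 differed by -0.44 and the transcription factor Msc by 0.56 (limma adjusted p = 0.253 and 0.335). Pax7, the defining factor of the satellite cell, differed by 0.02 and Itga7, the integrin of the sort gate, by -0.01, both measured on all 9 arrays.

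The mesenchymal (fibro-adipogenic) list was split. Of its 10 genes, 6 had a difference from 0.90 (Lum) upward, among them Col1a1 (1.91), Mfap5 (1.44) and Dcn (0.92), while Col3a1, Clec3b, Pi16 and Dpt differed by 0.03, 0.08, 0.02 and -0.01. By sign 9 were higher and 1 lower, with a median of 0.91, and the summed signal ran from 89.3 to 98.2 in WT and from 112 to 124 in KO, 71.1% of it from the Col3a1 probe. Pdgfra, the defining receptor of those cells, was not well above background on any of the 3 WT arrays and was so on 6 of 6 KO arrays. Endothelial markers were higher for 10 of 10 genes, with a median of 0.96 and a summed signal of 4.09 to 5.19 in WT and 5.46 to 8.41 in KO. Of these, Pecam1 was well above background on 2 of 3 WT arrays and 6 of 6 KO arrays, Tie1 on 1 of 3 and 4 of 6, and Robo4 on 0 of 3 and 4 of 6. The filter asked for 3 of 9 arrays, so a gene detected on fewer than 3 WT arrays passed only with KO arrays. Pdgfra, Ly6a, Pecam1, Tie1 and Robo4 passed in that way, as did Ckm, Adgre1, Cd14 and Epcam of the lists below. For those that read higher in KO, their part in the counts and medians of all marker lists is therefore not independent of that.

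Mural markers were higher for 10 of 10 genes (median 0.49; sums of 53.9 to 60.2 in WT and 64.4 to 69.0 in KO), and Pdgfrb among them differed by 1.35 (limma adjusted p = 0.0567). Glial markers were higher for 7 of 9 genes (median 0.76; sums of 23.0 to 30.4 and 34.3 to 37.4). In the glial list Ngfr differed by -0.35 and Gfap by -0.01, while Mbp differed by 1.38, and by 0.99 and 0.49 at its other kept probes. Differentiating muscle markers were higher for 5 of 7 genes (median 0.43), with sums of 11.8 to 19.0 in WT and 14.0 to 21.9 in KO that overlap. Myeloid markers were higher for 4 of 9 (median -0.02) and epithelial markers for 1 of 4 measured (median -0.16). The sums of these 2 lists, 124 to 144 in WT and 121 to 134 in KO, and 90.7 to 102 and 84.6 to 96.0, come to 95.9% and 98.9% from 1 probe each, of Itgam and Trp63, and describe those probes, not the cell types. No gene of the marker lists passed the limma test. At an unadjusted p under 0.05, where 6.49% of all kept probes were higher, the count of higher genes was 6 of 9 glial, 5 of 10 mesenchymal, 3 of 10 mural, 2 of 10 endothelial, 1 of 13 satellite cell, 1 of 9 myeloid, 0 of 7 differentiating muscle and 0 of 4 epithelial markers. The part of these cell types in the differences of the members was not tested.

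**Figure D3:**
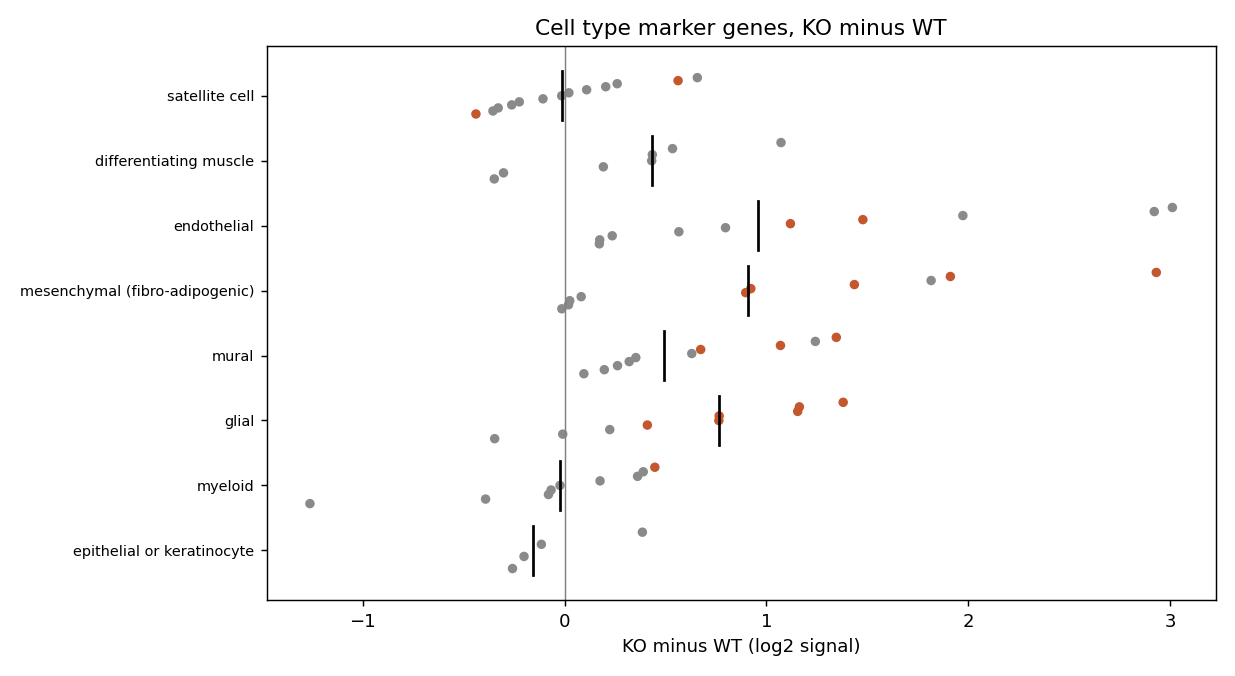
Difference between KO and WT on the log2 scale (horizontal axis) of every measured gene in the 8 marker lists (vertical axis), 1 point a gene, with the list's median as a black bar and orange-red points for an unadjusted limma p under 0.05. The satellite cell, myeloid and epithelial medians lie near or below 0 (-0.01, -0.02 and -0.16), and the endothelial, mesenchymal and glial medians at 0.96, 0.91 and 0.76.

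Some markers were high in all 3 KO samples, as were the 4 members whose groups did not overlap. This match follows from how the genes were picked, and nothing is read from it. Of all kept probes, 8.58% had every KO sample above every WT sample. Relative to the WT mean of each gene, Col1a1 was at 1.69, 1.67 and 2.37 in KO samples 1 to 3, Dcn at 1.04, 0.84 and 0.89, and the mural receptor Pdgfrb at 1.37, 1.26 and 1.40. The endothelial cadherin Cdh5 was at 1.95, 1.17 and 1.31, and the myelin gene Mbp at 1.40, 1.40 and 1.34. In KO sample 2 the endothelial genes Emcn, Tie1 and Egfl7 were at -1.42, -0.74 and -0.38. Measured the same way, Gpc3 was at 1.85, 1.63 and 1.35, Sdc4 at 0.77, 0.65 and 0.81, Sdc3 at 0.47, 0.38 and 0.23, and Gpc6 at 1.49, 0.72 and 0.78. In KO samples 1 to 3 the list medians were 1.19, 0.23 and 0.90 for the mesenchymal list and 0.89, 0.17 and 0.78 for the mural list. They were 1.86, 0.10 and 0.99 for the endothelial list and 0.54, 0.44 and 1.03 for the glial list. Ly6a (Sca1 of the sort gate) was at 3.76, -0.37 and 2.05. The single marker genes given here were chosen after their values were seen.

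**Figure D4:**
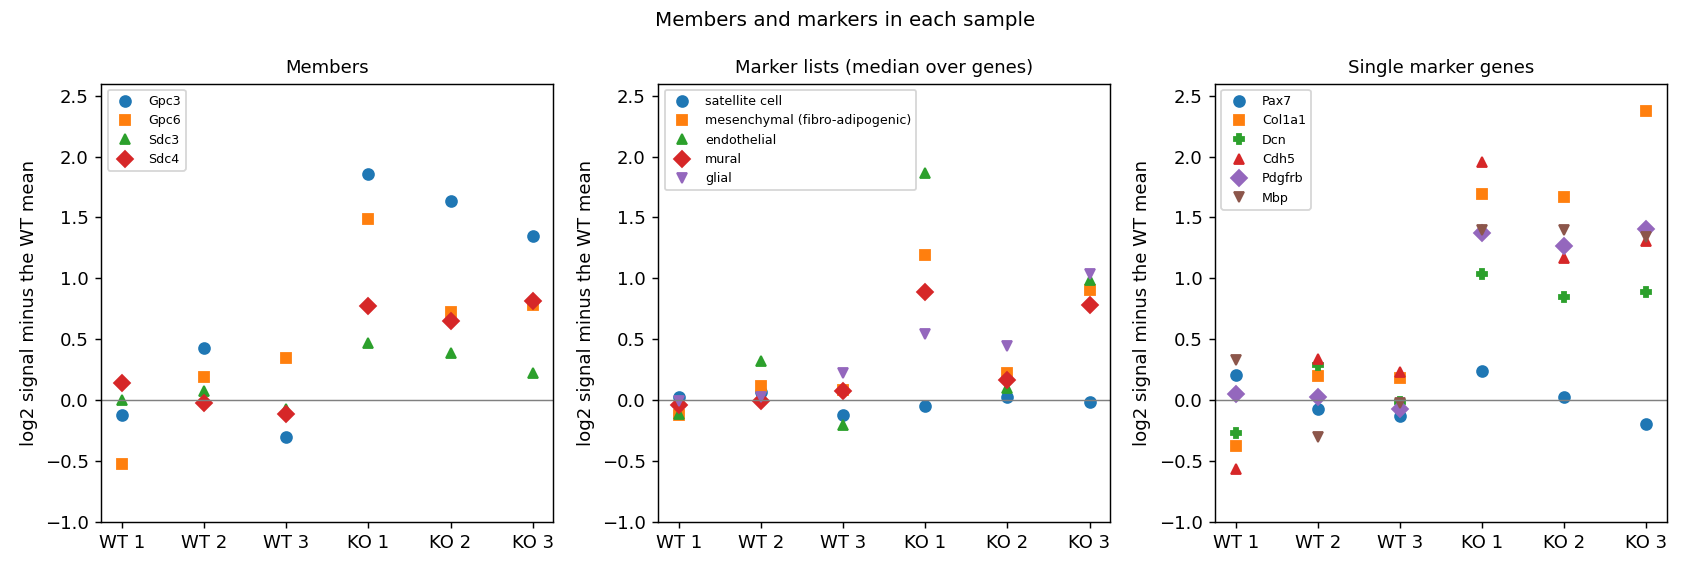
Log2 signal minus the WT mean (vertical axis) in each of the 6 samples (horizontal axis), for 4 members on the left, for the median gene of 5 marker lists in the middle and for 6 single marker genes on the right. Col1a1, Dcn, Cdh5, Pdgfrb and Mbp, chosen after their values were seen, lie above their WT values in all 3 KO samples. So do the 4 members, picked because their groups do not overlap. The mesenchymal, mural and endothelial medians of KO sample 2 stand at 0.23, 0.17 and 0.10.

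The genes that make, alter and use heparan sulfate were taken from 7 lists, with 89 of 95 listed genes measured. Of these, 49 were higher and 40 lower in KO, 0 passed the limma test and 13 had an unadjusted p under 0.05 (11 higher and 2 lower), where 10.4% of 28365 genes did so in either direction. Flt1, Papss2, Ndst4, Hs3st3b1 and Tiam1 passed the filter only with KO arrays. Flt1, Papss2 and Ndst4 among them read higher in KO, so their part in the counts and medians is not independent of that.

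The chains are built on a sugar linker, made by B3galt6 and its partners, and drawn out by Ext1 and Ext2. Of 12 chain assembly genes, 4 were higher and 8 lower, with a median of -0.08. B3galt6 was lower by an unadjusted p only, at -0.73 ± 0.20 (SE; limma adjusted p = 0.280), while Ext1 differed by 0.01 and Ext2 by -0.26. Of 17 measured genes of 20 that modify the chain, 9 were higher and 8 lower, with a median of 0.01. Hs6st3, a 6-O-sulfotransferase, stood apart, with a mean of -0.53 ± 0.44 (SD, n = 3) in WT and -2.44 ± 0.11 (SD, n = 3) in KO. Its difference was -1.91 ± 0.24 (SE; limma adjusted p = 0.0863), and -1.86 at its second probe. Its relatives Hs6st1 and Hs6st2 differed by 0.23 and 0.27.

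Of 12 genes of chain editing and degradation, 5 were higher and 7 lower, with a median of -0.08. Sulf2, an extracellular enzyme that takes 6-O-sulfate off the finished chain, was higher in KO by 1.44 ± 0.27 (SE; limma adjusted p = 0.153), and its relative Sulf1 differed by 0.19. Of 9 measured genes of shedding and release, 6 were higher and 3 lower, with a median of 0.06. Timp3, the inhibitor of the metalloproteinases that cut syndecans from the cell, was higher by 1.61 ± 0.15 (SE; limma adjusted p = 0.0617). Of 11 genes for cytoplasmic partners of the syndecans, 5 were higher, 6 lower and 0 passed an unadjusted p of 0.05, with syntenin (Sdcbp) at 0.02.

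Other carriers of heparan sulfate were higher for 5 of 7 measured genes, with a median of 0.03. Nrp1, a VEGF and semaphorin co-receptor, differed by 1.06 ± 0.15 (SE; limma adjusted p = 0.106), Spock2 by 0.77 and Col18a1 by 0.74. The basement membrane proteoglycans perlecan (Hspg2) and agrin (Agrn) differed by 0.03 and -0.14, and Tgfbr3 by -0.34. Of 21 measured ligands and receptors that bind heparan sulfate, 15 were higher and 6 lower, with a median of 0.25.

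Among those ligands, the matrix protein Tnc differed by 1.88 ± 0.26 (SE; limma adjusted p = 0.0931) and by 0.89 at its other probe. The heparin-binding growth factor Ptn differed by 1.24 ± 0.17 (SE; limma adjusted p = 0.0995) and by 0.51 at its other probe, and the chemokine Cxcl12 by 0.87 and 1.27. The receptors of the list went both ways. Flt1 differed by 1.27, Fgfr2 by 1.01, Fzd7 by 0.25 and Kdr by 0.17, while Fgfr3 differed by -0.02, Fgfr1 by -0.09, Fgfr4 by -0.26 and Met, the HGF receptor, by -0.27. At these probes none of the 8 passed the limma test, and Flt1 alone had an unadjusted p under 0.05. That Flt1 probe was well above background on 2 of 3 WT arrays, so it passed the filter only with KO arrays. Other kept probes gave 3.19 for Kdr, 2.52 for Flt1, 0.35 for Fzd7, 0.09 for Fgfr3, -0.05 for Fgfr1 and -0.22 for Fgfr4. The probes of Kdr thus disagree on the size of its difference.

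**Figure D5:**
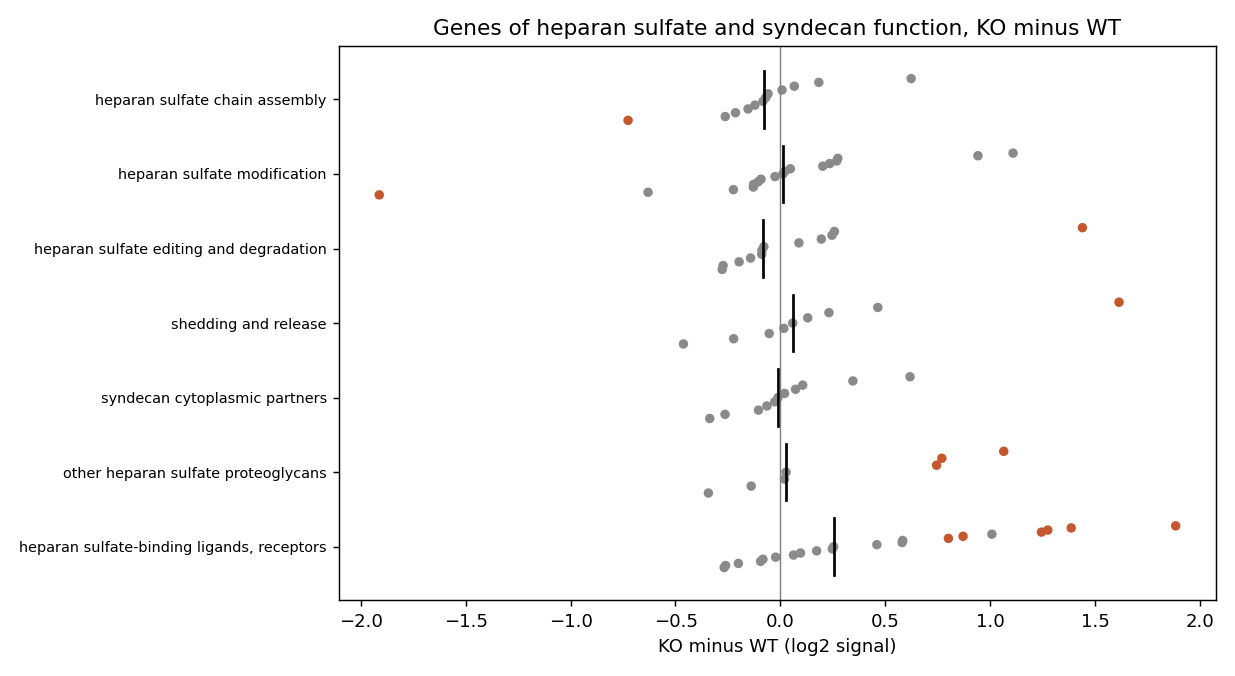
Difference between KO and WT on the log2 scale (horizontal axis) of every measured gene in 7 lists of heparan sulfate and syndecan function (vertical axis), 1 point a gene, with the list's median as a black bar and orange-red points for an unadjusted limma p under 0.05. Hs6st3 is the point at -1.91, Timp3 that at 1.61 and Tnc that at 1.88, and the median of the ligand and receptor list is 0.25.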

How the data were processed

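The authors deposited scanner output of 9 arrays, whose values are linear spot intensity. Agilent Feature Extraction had given, per the file headers, a background-corrected processed signal, with no normalization between arrays and dim values replaced by a small positive surrogate. The authors also deposited a table of log2 values; it matched normexp (offset 50) with quantile normalization (lowest r 0.999977 over probes, largest difference 0.0569; each column's median 7.81) and was an alternative. How it was made is not stated in the sources used here.

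Here, log2 of the processed signal was taken relative to the 75th percentile of the array's non-control spots. Outlier spots (93 to 148 an array) were left out. Repeat spots were averaged, and 35 missing values, none of a member, were filled with the probe's mean. A probe was kept if 3 or more of the 9 arrays had it well above background (42983; 12698 removed). KO arrays of 1 RNA sample were averaged. KO and WT were compared by limma 3.58.1 (R 4.3.3) on every kept probe, with Benjamini-Hochberg adjustment over all of them and 0.05 as the threshold. The fit was also run on simulated data, with changes larger than any member difference, so that run does not bear on the members. List genes are given at their brightest kept probe. In each list up to 3 higher and 3 lower genes could be named by smallest p. Other genes were named after their values were seen. These were Ext1, Hs6st1, Hs6st2, Sulf1, Sdcbp, Hspg2, the receptors Flt1, Fgfr1, Fgfr2, Fgfr3, Fzd7 and Kdr, and some markers. Likeness was searched for Sdc3, Sdc4 and Gpc3, among genes named through RefSeq and well above background on all 9 arrays. The outcome for Gpc3 is not given. The members and lists were chosen with earlier results of these data known. Levels of different probes were not compared, other than a probe's share of a list's summed signal. The number of arrays limits the precision. Alternatives were other background corrections, normalizations, filters, probe choices, array handling, slides, a replicate block and samples left out.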

Additional observations from a re-analysis of the deposited data

How the results depend on the processing

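In all 19 alternatives run for each member, Sdc1, Sdc2, Sdc3, Sdc4, Gpc3 and Gpc6 stayed higher and Gpc2 lower in KO. The direction of Gpc1 turned without KO sample 2 (-0.012; 0.17 at the other end of the leave-one-out range). That of Gpc4 turned to -0.016 with slide as a block, -0.040 within slide 2, -0.015 without KO sample 2, -0.038 without WT sample 3 and -0.0058 without the KO array whose genotype field differs (-0.038 to 0.12 over samples left out). Of the 9 members, 1 was called with normexp, 1 in the deposited log2 table and 2 with the 9 arrays separate, and 0 in each other setting. Over the alternatives the limma adjusted p ran from 0.00598 to 0.291 for Gpc3, 0.0254 to 0.405 for Sdc4, 0.0895 to 0.669 for Sdc3 and 0.0979 to 0.585 for Gpc6.

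The 21 calls among all probes became 282 with normexp, 208 in the deposited table, 62 with probes detected on all 9 arrays, 39 with 1 probe a gene, 1639 with 9 separate arrays, 610 with a random block for the RNA sample, 1 when slide was a block, 0 within slide 1, and 0 to 3 with a sample left out. The 0 calls among the pathway genes became 5, 5, 2, 1, 10 and 7 in the first 6 of these. The cause was not tested. In the random block fit the KO pairs share 1 estimated correlation of 0.838. Within slide 2 there is no test with 1 WT sample.

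The replicate numbers did not pair the samples: the deviations of same-numbered WT and KO samples correlated at -0.027, 0.015 and 0.019. With the replicate number as a block, 0 probes were called, with limma adjusted p of 0.246 for Gpc3 and 0.316 for Sdc4. The Gpc6 difference was 0.55 with normexp, though its probe was well above background on all 9 arrays. Signal over background leaves the other Gpc3 probe with no level.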
